A study of Mus musculus with 6 samples.

Results

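The genes described here are 40 endothelial and angiogenic genes, taken by name from the 56748 genes listed for each uterus. They comprise 5 VEGF family ligands, 3 VEGF receptors, 4 genes of the angiopoietin and Tie system, 4 genes of apelin and G protein-coupled signaling, 11 genes of the endothelial surface and junction, 5 transcription factors, 4 genes for secreted factors and an enzyme, and 4 lymphatic genes. All 40 were found, and all 40 had enough counts to be among the 16605 genes tested. Uteri of 3 control and 3 *Gp130* ecKO females were collected at 1600 h on day 4 of pregnancy, a few hours before the embryo attaches. *Gp130* ecKO females carried *Ltf*-iCre and floxed *Gp130* (*Il6st*) on both alleles, and the labels give the controls as WT, whereas the methods describe controls as floxed without iCre or wildtype. Both groups were sexually mature, on the background given as C57BL/6 in the labels and C57BL/6J in the methods, and mated with fertile wildtype males. *Ltf*-iCre acts in the uterine epithelium and in some neutrophils and macrophages, and it is not directed at the endothelium. The question asked of these genes was whether the level of vascular transcripts differed between the 2 groups just before implantation.

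Blood vessels are lined by endothelial cells, which read VEGF through the receptor tyrosine kinases FLT1, KDR and FLT4, and angiopoietins through TEK. KDR carries most of the growth signal of VEGFA, FLT1 binds VEGFA tightly and limits it, and FLT4 serves VEGFC and VEGFD in lymphatic vessels. In the mouse uterus, vessels of the endometrium become permeable at the site of the blastocyst around attachment, and new vessels form in the decidua.

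The total expected count per uterus ranged from 13960748, in control 3, to 25906443. *Il6st*, the targeted gene, had 452 to 678 CPM in the control and 349.8 to 388 CPM in *Gp130* ecKO, in RNA of tissue not separated by cell type. CPM is the count relative to the library size after TMM scaling, SE is the standard error, and a log2 fold change compares *Gp130* ecKO with the control, so that a negative value is lower in *Gp130* ecKO. All 4 genes fixed as markers of blood endothelium (*Pecam1*, *Cdh5*, *Kdr* and *Emcn*) and all 4 fixed for lymphatic endothelium (*Lyve1*, *Prox1*, *Pdpn* and *Flt4*) had counts in every uterus. The series text speaks of endometrium and the labels of uterus, and 6 smooth muscle markers summed to between 475 and 2994 CPM, so muscle was present and its share varied between uteri within both groups.

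Compared with the control, most blood endothelial genes had fitted levels about 2-fold lower in *Gp130* ecKO. All 4 lymphatic genes overlapped between the groups, as did most tested genes and several blood endothelial genes, such as *Cdh5* and *Plvap*. Whether lymphatic and blood endothelial genes differed from each other was not tested. The fitted level was lower in 39 of the 40 genes, where 52.9% of all tested genes were lower, and the median log2 fold change was −1.12, beside −0.05 over all tested genes. None of the 40 passed the threshold of an FDR under 0.05 with more than 2-fold change in edgeR's quasi-likelihood test, which called 0.157% of all tested genes and 0.0301% as lower, and its legacy form also called none, with 0.0422% of all tested genes called. At an FDR under 0.10 with the same fold, 11 of the 40 were called, all lower, where 2.44% of all tested genes were called lower. At an unadjusted p under 0.05 there were 26 of the 40, all lower, where 12.9% of all tested genes were lower and 12.1% higher with such a p. The groups did not overlap in 20 of the 40, with all 3 *Gp130* ecKO values under the lowest control value, and this held for 15.6% of all tested genes. None of the 40 was higher without overlap, against 15.7% of all tested genes.

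Other tests placed many of these genes past the FDR and fold thresholds. edgeR's exact test called 14 of the 40, all lower, where it called 3.79% of all tested genes lower, and its likelihood ratio test called the same 14, where it called 4.01% of all tested genes lower. DESeq2 called those 14 and also *Erg*, *Flt1* and *Pecam1*, 17 in all, where it called 4.87% of all tested genes lower. With control 2 left out, the quasi-likelihood test called 5 of the 40 (*Ramp2*, *Pgf*, *Fli1*, *Egfl7* and *Aplnr*), where it called 1.81% of all tested genes lower. For each of the 20 genes without overlap, the exact two-sided permutation test gave p = 0.1, the smallest value that groups of this size allow.

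The uteri of a group differed widely from each other in these genes. Control 1 had the highest value of all 6 uteri in 36 of the 40 genes, and *Gp130* ecKO 1 had the lowest in 31. Control 3 was the lowest control uterus in 33 of the 40. The number of genes with an unadjusted p under 0.05 was 14 without control 1 and 15 without *Gp130* ecKO 1, instead of 26. The share of all tested genes with such a p was not counted in these fits, so the counts have no background beside them. Without control 1, 35 of the 40 were still lower, with a median log2 fold change of −0.74. In bulk RNA, fewer endothelial cells and less RNA per endothelial cell cannot be told apart.

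**Figure D1:**
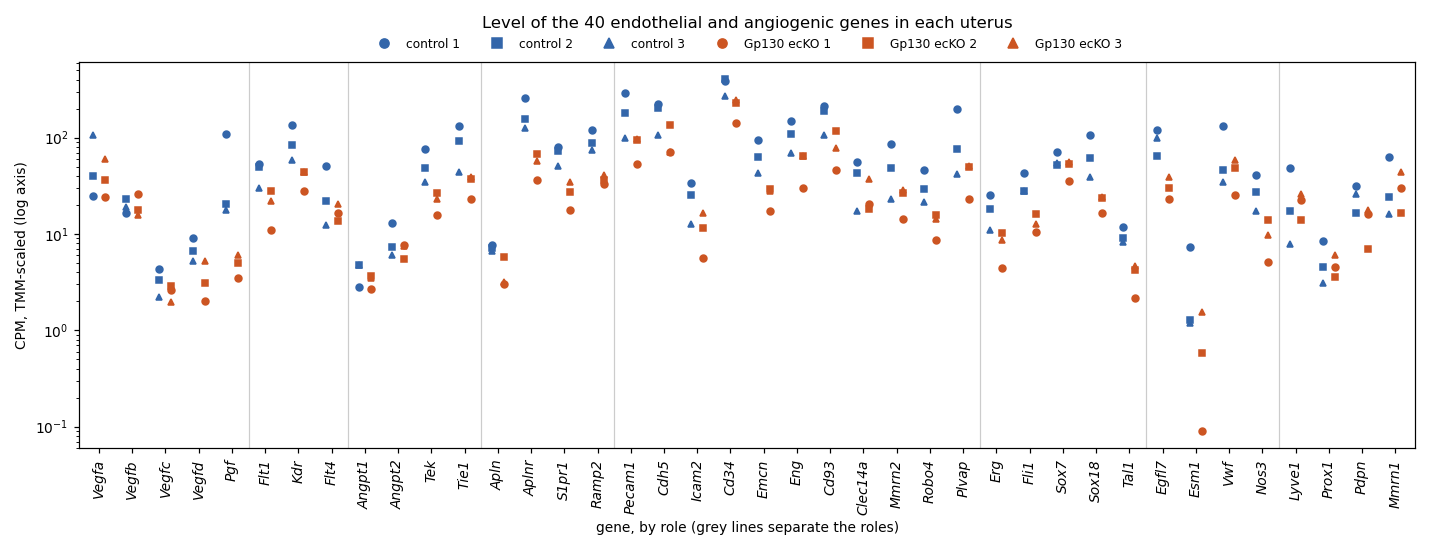
Each point is the CPM of a gene in one uterus (log axis), with control uteri in blue, *Gp130* ecKO uteri in orange and the replicate number as the marker shape. In 20 of the 40 genes all orange points lie below all blue ones, and *Gp130* ecKO 1 is the lowest uterus in 31 of the 40 genes.

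Among the VEGF receptors, *Kdr* (ENSMUSG00000062960, chromosome 5 of GRCm39, 76093487 to 76139884) had 134, 84.6 and 58.1 CPM in controls 1, 2 and 3, against 27.8, 44.5 and 43.5 CPM in *Gp130* ecKO 1, 2 and 3. The groups did not overlap. The log2 fold change was −1.26 (SE 0.33, adjusted p = 0.0983, edgeR), and −0.86 without control 1. *Flt1*, the receptor that limits VEGFA, had 53.2, 49.7 and 30.2 CPM in the controls, against 11.1, 28.0 and 21.9 CPM in the *Gp130* ecKO uteri, again without overlap (log2 fold change −1.13, adjusted p = 0.130). *Flt4*, the receptor of the lymphatic endothelium, had 51.1, 22.2 and 12.3 CPM in the controls, against 16.6, 13.5 and 20.6 CPM in the *Gp130* ecKO uteri. Control 3 was below all *Gp130* ecKO uteri for *Flt4*, and the log2 fold change of −0.76 (adjusted p = 0.358) was −0.01 without control 1.

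Of the Tie receptors, *Tek*, which binds the angiopoietins, had 75.6, 48.6 and 35.0 CPM in the controls, against 15.9, 26.8 and 22.9 CPM in the *Gp130* ecKO uteri. The groups did not overlap, with a log2 fold change of −1.28 (SE 0.33, adjusted p = 0.0943, edgeR). *Tie1*, its co-receptor, had 131, 93.3 and 43.8 CPM in the controls, against 22.9, 36.8 and 38.9 CPM in the *Gp130* ecKO uteri, also without overlap (log2 fold change −1.44, adjusted p = 0.105). Both ligand genes overlapped between the groups. *Angpt1*, the ligand that stabilises vessels, ranged from 2.83 to 4.82 CPM in the control and from 2.67 to 3.65 CPM in *Gp130* ecKO (log2 fold change −0.33, 95% interval −1.14 to 0.48, with −0.15 without control 2, −0.20 without *Gp130* ecKO 1 and −0.52 without control 1). *Angpt2*, which endothelial cells make and which can oppose ANGPT1, ranged from 6.07 to 12.9 CPM and from 5.50 to 7.64 CPM (log2 fold change −0.37, 95% interval −1.19 to 0.46, and 0.04 without control 1).

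The sequence just upstream of the transcription start is shown for 3 genes whose groups did not overlap and which hold one of the searched motifs there. The entries come from RefSeq on GRCm38.p6, a different build from that of the counts, and matched 23 of the 40 genes with 31 promoters of 300 bases. Each line gives the 250 bases before the start, 5′ to 3′ on the gene's strand, with the motif in capitals.
*Kdr*, chr5:75978456-75978705, minus strand, ETS core: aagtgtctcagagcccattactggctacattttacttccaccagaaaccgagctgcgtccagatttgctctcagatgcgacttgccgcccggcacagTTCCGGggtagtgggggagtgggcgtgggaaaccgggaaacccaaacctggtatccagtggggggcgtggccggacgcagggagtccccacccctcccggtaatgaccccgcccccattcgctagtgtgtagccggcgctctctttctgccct
*Tek*, chr4:94739039-94739288, plus strand, SOX motif: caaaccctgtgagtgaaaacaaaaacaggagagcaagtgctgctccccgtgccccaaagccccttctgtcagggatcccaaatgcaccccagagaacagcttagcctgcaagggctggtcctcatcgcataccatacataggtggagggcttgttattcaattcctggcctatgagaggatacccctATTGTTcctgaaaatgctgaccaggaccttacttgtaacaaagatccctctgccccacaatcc
*Emcn*, chr3:137340828-137341077, plus strand, SOX motif: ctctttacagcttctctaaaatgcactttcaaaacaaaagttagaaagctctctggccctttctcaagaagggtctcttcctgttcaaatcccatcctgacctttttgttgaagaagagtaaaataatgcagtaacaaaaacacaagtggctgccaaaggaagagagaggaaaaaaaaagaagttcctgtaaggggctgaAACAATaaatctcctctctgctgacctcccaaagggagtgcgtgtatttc
The capitals start 153 bases before the start in *Kdr*, 63 in *Tek* and 50 in *Emcn*. The ETS core was searched only as CCGGAA, a narrow form of the letters bound by ERG and FLI1 among others. Other forms were not counted, so the shares do not cover all ETS sites. CCGGAA stood on either strand in 1 of the 31 promoters (3.23%) and in 14.9% of all 32851 promoters. The SOX motif AACAAT stood in 4 of the 31, those of *Emcn*, *Erg*, *Mmrn1* and *Tek* (12.9%), and in 10.7% of all promoters. The STAT motif TTCNNNGAA stood in 0 of the 31 and in 8.30% of all promoters. The hypoxia motif ACGTG stood in 3 of the 31, of *Clec14a*, *Pdpn* and *Vegfa* (9.68%), and in 19.6% of all promoters, and the estrogen receptor motif (2 inverted GGTCA half-sites, 3 bases apart) in 0 of the 31 and in 0.07% of all. The motifs share no letters by overlap in the stretches shown, and a match of letters is not a shown binding site. The genes with no entry were *Angpt1*, *Angpt2*, *Aplnr*, *S1pr1*, *Ramp2*, *Pecam1*, *Cdh5*, *Icam2*, *Cd93*, *Mmrn2*, *Plvap*, *Fli1*, *Sox7*, *Sox18*, *Vwf*, *Nos3* and *Lyve1*.

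The VEGF ligands differed among themselves. *Vegfa*, the main ligand of KDR, had 24.8, 40.2 and 107 CPM in controls 1, 2 and 3, against 24.1, 36.4 and 59.5 CPM in *Gp130* ecKO 1, 2 and 3. The groups overlapped, and the uterus with the highest value in nearly all other genes, control 1, had the lowest control value of *Vegfa*. Its log2 fold change was −0.52 (95% interval −1.81 to 0.78, adjusted p = 0.581, edgeR), and 0.30 without control 3. *Vegfb* was the one gene of the 40 with a fitted level that was not lower, at 15.8 to 25.7 CPM over the 6 uteri (log2 fold change 0.02, 95% interval −0.58 to 0.61, and −0.06 without control 1), and with upper quartile scaling its value was also below 0.

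*Pgf* encodes placental growth factor, a ligand of FLT1, and had the largest fold change of the 40 (ENSMUSG00000004791, chromosome 12, 85213409 to 85224564). It had 109, 20.4 and 17.6 CPM in the controls, against 3.53, 4.96 and 6.09 CPM in the *Gp130* ecKO uteri. The groups did not overlap, and control 1 stood far above the other controls. The log2 fold change was −3.33 (SE 0.75, adjusted p = 0.0821, edgeR) and −1.94 without control 1, and its adjusted p over the alternatives lay between 5.94e-05 (DESeq2) and 0.250. Of the ligands of FLT4, *Vegfc* was at 1.99 to 4.33 CPM over all uteri, with overlap. *Vegfd* had 9.06, 6.63 and 5.20 CPM in the controls, against 2.03, 3.11 and 5.31 CPM in the *Gp130* ecKO uteri, where *Gp130* ecKO 3 was above control 3 in CPM, while the deposited TPM did not overlap (log2 fold change −1.0, adjusted p = 0.197).

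All 4 genes of apelin and G protein-coupled signaling were lower in *Gp130* ecKO without overlap, as were 15.6% of all tested genes. *Aplnr*, the apelin receptor (ENSMUSG00000044338, chromosome 2, 84966569 to 84970267), had 256, 157 and 125 CPM in the controls, against 36.3, 67.6 and 56.7 CPM in the *Gp130* ecKO uteri. Its log2 fold change was −1.74 (SE 0.33, adjusted p = 0.0677, edgeR), and it stayed between −1.95 and −1.37 whichever single uterus was dropped. *Ramp2*, the partner of the adrenomedullin receptor CALCRL (ENSMUSG00000001240, chromosome 11, 101136358 to 101150419), had 121, 88.7 and 73.9 CPM in the controls, against 33.4, 36.7 and 40.5 CPM in the *Gp130* ecKO uteri. This was the lowest adjusted p of the 40 (log2 fold change −1.36, SE 0.22, adjusted p = 0.0548, edgeR, with a range of 3.45e-05 to 0.180 over the alternatives). *S1pr1*, a sphingosine 1-phosphate receptor that supports endothelial junctions, had 80.1, 73.4 and 50.5 CPM in the controls, against 17.9, 27.3 and 34.8 CPM in the *Gp130* ecKO uteri (log2 fold change −1.35, adjusted p = 0.0768). *Apln*, the ligand made by endothelial tip cells, was lower by less, with 7.69, 7.13 and 6.67 CPM in the controls, against 3.03, 5.77 and 3.15 CPM in the *Gp130* ecKO uteri (log2 fold change −0.84, adjusted p = 0.185).

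All 11 genes of the endothelial surface and junction had a lower fitted level, 10 of them with an unadjusted p under 0.05, and in 5 the groups did not overlap, where the shares over all tested genes were 52.9%, 12.9% and 15.6%. *Pecam1*, the adhesion molecule CD31 (ENSMUSG00000020717, chromosome 11, 106543689 to 106641454), had 290.3, 179 and 99.3 CPM in the controls, against 53.8, 95.6 and 97.9 CPM in the *Gp130* ecKO uteri. The gap between control 3 and *Gp130* ecKO 3 was narrow, and in the deposited TPM the groups overlapped. The log2 fold change of *Pecam1* was −1.20 (SE 0.40, adjusted p = 0.136, edgeR), and −0.73 without control 1. *Cdh5*, the cadherin of endothelial junctions, had 225, 201 and 107 CPM in the controls, against 70.3, 135 and 71.8 CPM in the *Gp130* ecKO uteri, so *Gp130* ecKO 2 was above control 3 (log2 fold change −0.94, adjusted p = 0.164). *Emcn*, a sialomucin of capillary and venous endothelium, had 94.7, 62.7 and 42.5 CPM in the controls, against 17.4, 29.5 and 27.8 CPM in the *Gp130* ecKO uteri (log2 fold change −1.42, adjusted p = 0.0862).

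Of the other surface genes, 3 did not overlap between the groups in CPM. *Robo4*, an endothelial guidance receptor, had 46.0, 29.4 and 21.3 CPM in the controls, against 8.64, 15.8 and 14.4 CPM in the *Gp130* ecKO uteri, without overlap (log2 fold change −1.32, adjusted p = 0.10). *Eng*, a co-receptor of the TGF-beta family, had 151, 108 and 68.7 CPM in the controls, against 30.4, 64.9 and 64.5 CPM in the *Gp130* ecKO uteri, also without overlap (log2 fold change −1.03, adjusted p = 0.153). *Cd34*, a sialomucin that stromal cells can also express, had 384, 404 and 268 CPM in the controls, against 142, 231 and 245 CPM in the *Gp130* ecKO uteri, without overlap in CPM (log2 fold change −0.77, adjusted p = 0.141). In the deposited TPM the groups overlapped for both *Eng* and *Cd34*. The groups overlapped for *Cd93*, *Icam2*, *Mmrn2*, *Plvap* and *Clec14a*. *Cd93* had 215, 189.7 and 107 CPM in the controls, against 46.2, 118 and 77.7 CPM in the *Gp130* ecKO uteri (log2 fold change −1.08, adjusted p = 0.148). For this gene *Gp130* ecKO 2 was above control 3. *Icam2*, an adhesion molecule, had 34.2, 25.6 and 12.6 CPM in the controls, against 5.65, 11.5 and 16.4 CPM in the *Gp130* ecKO uteri (log2 fold change −1.11, adjusted p = 0.199). *Mmrn2*, a matrix protein, had 85.2, 48.5 and 23.3 CPM in the controls, against 14.2, 26.7 and 28.6 CPM in the *Gp130* ecKO uteri (log2 fold change −1.18, adjusted p = 0.181, and −0.61 without control 1). *Plvap*, a protein of endothelial diaphragms, had 196, 75.9 and 42.3 CPM in the controls, against 23.3, 49.3 and 51.4 CPM in the *Gp130* ecKO uteri (log2 fold change −1.34, adjusted p = 0.194, and −0.49 without control 1). *Clec14a* had the smallest difference of the 11 (17.3 to 55.7 against 18.1 to 37.1 CPM, log2 fold change −0.62, 95% interval −1.68 to 0.44, and −0.23 without control 1).

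Of the transcription factors, the ETS factors *Fli1* and *Erg*, the SOX factor *Sox18* and the bHLH factor *Tal1* were lower without overlap in CPM, while in the deposited TPM *Erg* overlapped. *Sox18*, which acts in vessel and lymphatic development, had 106, 61.5 and 39.2 CPM in the controls, against 16.4, 23.9 and 24.0 CPM in the *Gp130* ecKO uteri (log2 fold change −1.68, SE 0.37, adjusted p = 0.0787, edgeR). *Fli1* had 43.0, 27.8 and 28.1 CPM in the controls, against 10.5, 16.1 and 12.6 CPM in the *Gp130* ecKO uteri (log2 fold change −1.33, adjusted p = 0.0696). For both ETS factors *Gp130* ecKO 1 was the lowest uterus. *Erg* had 25.5, 18.01 and 10.9 CPM in the controls, against 4.43, 10.2 and 8.62 CPM in the *Gp130* ecKO uteri (log2 fold change −1.23, adjusted p = 0.136). *Tal1*, which is also a factor of blood cell precursors, had 11.8, 9.14 and 8.27 CPM in the controls, against 2.17, 4.19 and 4.64 CPM in the *Gp130* ecKO uteri (log2 fold change −1.40, adjusted p = 0.0951). *Sox7*, of the same SOX subgroup as *Sox18*, differed from these genes, with 70.6, 51.4 and 54.8 CPM in the controls, against 35.3, 53.5 and 56.1 CPM in the *Gp130* ecKO uteri. The groups overlapped for *Sox7* (log2 fold change −0.29, 95% interval −0.82 to 0.25, and −0.11 without control 1).

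Among the secreted factors, *Egfl7*, an endothelial matrix protein (ENSMUSG00000026921, chromosome 2, 26468286 to 26486789), had 120.5, 64.4 and 100.3 CPM in the controls, against 23.2, 30.1 and 39.4 CPM in the *Gp130* ecKO uteri. The groups did not overlap, with a log2 fold change of −1.62 (SE 0.29, adjusted p = 0.0636, edgeR), which stayed between −1.80 and −1.38 whichever single uterus was dropped. *Nos3*, the endothelial nitric oxide synthase, had 40.8, 27.5 and 17.4 CPM in the controls, against 5.11, 13.9 and 9.78 CPM in the *Gp130* ecKO uteri, also without overlap (log2 fold change −1.57, adjusted p = 0.105). The groups overlapped for *Vwf*, the clotting factor carrier stored in endothelial cells and platelets (34.7 to 131 against 25.2 to 59.2 CPM), and its log2 fold change went from −0.68 to 0.15 without control 1. *Esm1*, a proteoglycan of tip cells, rested on 181 counts in control 1 and on 2 to 37 counts in each of the other uteri, and its groups overlapped (log2 fold change −2.16, 95% interval −4.44 to 0.13, and −0.71 without control 1).

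The 4 lymphatic genes overlapped between the groups, and none had an unadjusted p under 0.05. Over all tested genes, 15.6% were lower and 15.7% higher without overlap, and 12.9% and 12.1% had such a p in each direction. Most tested genes also overlapped, so these counts do not set the 4 genes apart. *Prox1*, the factor that specifies lymphatic endothelium, had 8.41, 4.51 and 3.07 CPM in controls 1, 2 and 3, against 4.57, 3.61 and 6.09 CPM in *Gp130* ecKO 1, 2 and 3. For *Prox1* the log2 fold change was −0.18 (95% interval −1.19 to 0.83). *Lyve1*, a hyaluronan receptor of lymphatic endothelium and of some macrophages, had 49.0, 17.5 and 7.80 CPM in the controls, against 22.6, 13.9 and 26.2 CPM in the *Gp130* ecKO uteri (log2 fold change −0.25, 95% interval −1.66 to 1.16). Control 1 was the highest uterus and control 3 the lowest for both genes, and without control 1 their log2 fold changes were 0.34 and 0.74. *Mmrn1*, a multimerin of lymphatic endothelium and platelets, overlapped in the same way (16.1 to 62.7 against 16.5 to 44.5 CPM, log2 fold change −0.19, 95% interval −1.46 to 1.08, and 0.60 without control 1). *Pdpn*, which stromal and mesothelial cells also express, had 16.4 to 31.5 CPM in the control and 6.92 to 17.7 CPM in *Gp130* ecKO females (log2 fold change −0.85, adjusted p = 0.232, and −0.53 without *Gp130* ecKO 2). All 4 intervals include a level that is 2-fold lower, so a difference of that size is not shown to be absent.

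**Figure D2:**
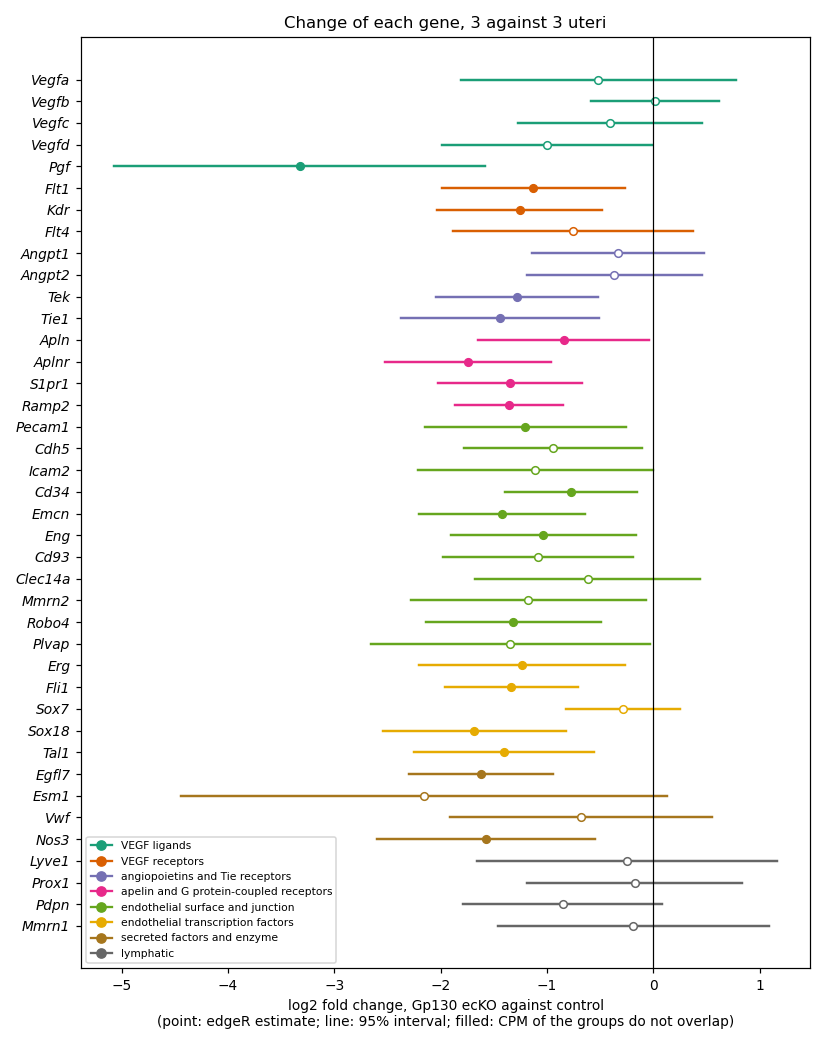
The log2 fold change of each gene is drawn as a point with its 95% interval as a line, colored by role, and filled where the groups were separate in CPM. The 20 filled points are all below 0 and the intervals of the 4 lymphatic genes at the bottom include 0.

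Compared per transcript length, with the deposited TPM, the most abundant of the 40 in the control were *Cd34* (195 ± 37 TPM, SD, n = 3), *Ramp2* (160 ± 28), *Egfl7* (144 ± 41) and *Aplnr* (89.1 ± 22.4). *Cd34* and *Ramp2* differed by less than their spread, as did *Ramp2* and *Egfl7*. In *Gp130* ecKO, *Cd34* (131 ± 48 TPM, SD, n = 3) stood above *Ramp2* (64.3 ± 4.2) and *Egfl7* (46.9 ± 10.6). *Pgf* had 90.7, 17.9 and 18.3 TPM in controls 1, 2 and 3, so its mean rested on control 1, and 4.60 ± 1.21 TPM (SD, n = 3) in *Gp130* ecKO. *Vegfb* stood at 22.3 ± 4.0 and 23.8 ± 7.1 TPM (SD, n = 3) in the control and *Gp130* ecKO. *Prox1* had the lowest mean in the control (0.870 ± 0.404 TPM), but not the lowest value in each control uterus. In control 1 it had 1.32 TPM, above *Angpt1* at 0.83 TPM.

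Genes of the same cells that were not among the 40 were also mostly lower. Of a list of 15 other endothelial genes, 14 were lower, 12 with an unadjusted p under 0.05, and 11 did not overlap between the groups, beside 52.9%, 12.9% and 15.6% of all tested genes. Their median log2 fold change was −1.39. *Afap1l1* had the lowest p of this list, with 46.5 to 83.9 CPM in the control and 16.5 to 21.2 CPM in *Gp130* ecKO females (log2 fold change −1.82, adjusted p = 0.0548, edgeR). *Esam*, an adhesion molecule of endothelial junctions, had 62.4 to 162 CPM in the control and 34.6 to 54.9 CPM in *Gp130* ecKO (log2 fold change −1.36). *Rasgrp3* was the exception, with a log2 fold change of 0.85. Of 4 tested lymphatic genes outside the 40, 3 were lower, 1 of them (*Foxc2*) with an unadjusted p under 0.05, and the median log2 fold change was −0.74. All 4 overlapped between the groups, the log2 fold change of *Foxc2* was −1.53 and −0.72 without control 1, and *Ccl21a*, the chemokine of lymphatic endothelium, had 84.9 to 470.0 CPM in the control and 75.6 to 213 CPM in *Gp130* ecKO.

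Mural cells, which wrap capillaries and small vessels, had 8 marker genes, all 8 lower and 6 without overlap, beside 52.9% and 15.6% of all tested genes (median log2 fold change −1.05). *Rgs5*, a pericyte gene, had 186, 398 and 389 CPM in the controls, against 84.1, 163 and 102 CPM in the *Gp130* ecKO uteri (log2 fold change −1.48, adjusted p = 0.0907). *Pdgfrb*, the receptor that recruits pericytes, had 26.8 to 53.2 CPM in the control and 14.4 to 22.3 CPM in *Gp130* ecKO (log2 fold change −1.23). Control 1, the highest uterus in endothelial genes, was the lowest control in both mural genes.

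Of 24 partners of the pathway, 16 were lower and 8 higher, with 7 and 2 past an unadjusted p of 0.05 in each direction. Over all tested genes 52.9% were lower, and 12.9% and 12.1% passed that p as lower and higher, so the share of partners that were higher with such a p was not above that of all genes. *Hif1a*, the oxygen-regulated factor that can induce *Vegfa*, was higher in *Gp130* ecKO, with 304, 366 and 199 CPM in the controls, against 693, 862 and 756 CPM in the *Gp130* ecKO uteri (log2 fold change 1.41, SE 0.26, adjusted p = 0.0649, edgeR). *Epas1*, the related factor that endothelial cells express, was lower, with 211, 111 and 94.7 CPM in the controls, against 56.0, 74.8 and 70.5 CPM in the *Gp130* ecKO uteri (log2 fold change −1.05, adjusted p = 0.115, and −0.59 without control 1). The groups did not overlap for either factor. *Calcrl*, the receptor that pairs with RAMP2, had 42.1 to 59.0 CPM in the control and 16.4 to 31.9 CPM in *Gp130* ecKO females (log2 fold change −1.05, adjusted p = 0.0956). *Thbs1*, an inhibitor of angiogenesis, was higher, with 90.7 to 204 CPM in the control and 206 to 355 CPM in *Gp130* ecKO females (log2 fold change 0.79, adjusted p = 0.196). The related gene *Thbs2* went the other way, without overlap. It had 4.87 to 8.79 CPM in the control and 2.85 to 3.73 CPM in *Gp130* ecKO females (log2 fold change −1.01, adjusted p = 0.131).

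Markers of other tissues of the wall also differed between the groups, and their counts stand beside 15.6% of all tested genes lower and 15.7% higher without overlap. The 5 epithelial markers summed to 1705 to 2602 CPM in the control and 3801 to 5101 CPM in *Gp130* ecKO, with 3 of the 5 higher without overlap and *Epcam* overlapping. This list includes *Krt8* and *Cdh1*, and the paper reports more of both proteins in the epithelium of *Gp130* ecKO. The 6 stromal markers summed to 2599 to 3405 CPM in the control and 1403 to 2285 CPM in *Gp130* ecKO, with 4 of the 6 lower without overlap. The 4 mesothelial markers summed to 167 to 250.2 CPM and 67.1 to 117 CPM, and 1 of the 4, *Wt1*, was lower without overlap. Macrophage markers overlapped (90.1 to 138 and 57.1 to 96.1 CPM, 2 of 7 tested lower without overlap), as did smooth muscle markers (568 to 2781 and 475 to 2994 CPM, 0 of 6) and those of platelets and erythroid cells (186 to 339 and 58.6 to 321 CPM, 1 of 6 tested). No gene of these lists was at 0 in all uteri. CPM is relative to the whole library, and the part of these marker differences in the lower endothelial levels was not tested.

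**Figure D3:**
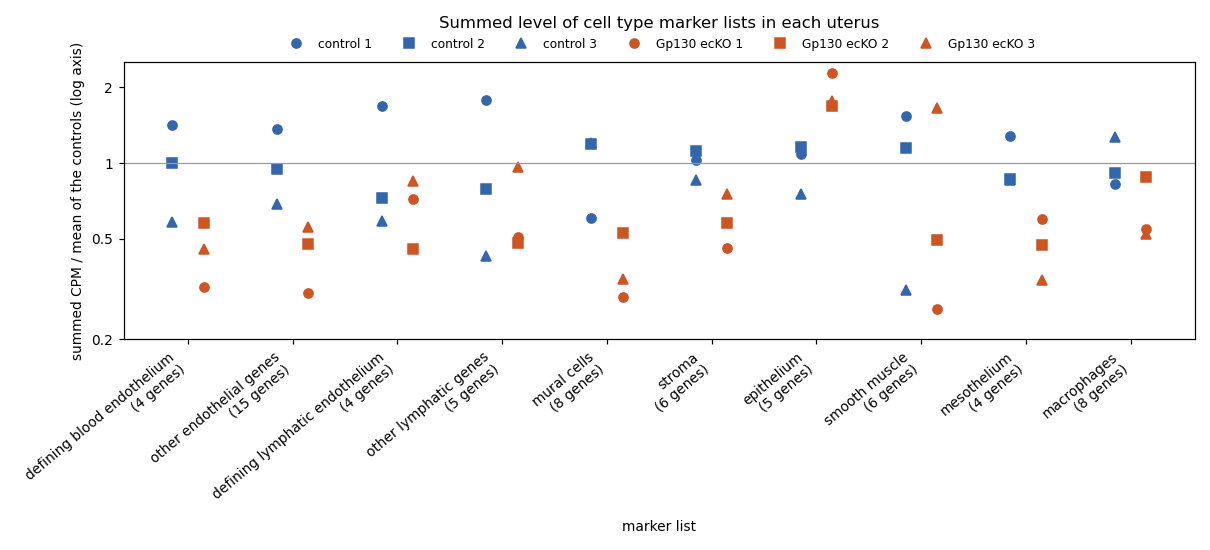
For each marker list, the summed CPM of its genes in each uterus is drawn relative to the mean of the 3 control uteri (log axis), with controls in blue and *Gp130* ecKO in orange. Blood endothelial, mural, stromal and mesothelial lists are lower in all 3 *Gp130* ecKO uteri than in any control uterus, the epithelial list is higher in all 3, and both lymphatic lists overlap. For the defining blood endothelial list the margin is narrow, with 304.8 CPM in *Gp130* ecKO 2 and 307.4 CPM in control 3.

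To see which of the 40 genes differed from other endothelial genes, each was set against the mean log2 level of the 15 other endothelial genes in the same uterus. That mean was lower by 1.18 on the log2 scale in *Gp130* ecKO. Because the reference was itself lower, genes in general were higher on this scale, with a median difference of 1.14 over all tested genes, and 58.8% of all tested genes were higher without overlap. Against it, 26 of the 40 genes differed by less than 0.5 between the group means, where 14.7% of all tested genes did. The median difference of the 40 was 0.08. The 14.7% is low in part because the reference was lower, so the contrast shows no more than a fall shared with the reference. *Kdr* was 1.38, 1.17 and 1.09 above the endothelial mean in controls 1, 2 and 3, and 1.26, 1.25 and 1.09 above it in *Gp130* ecKO 1, 2 and 3, a difference of −0.02. *Erg*, *Flt1*, *Tek*, *Plvap*, *Cd93*, *Pecam1*, *Robo4* and *Icam2* likewise differed by less than 0.1 over all 6 uteri. With 1 uterus dropped, these values reached at most 0.21 in size, except for *Plvap* and *Icam2*. *Plvap* was 0.42 without control 1 and −0.23 without control 3, and *Icam2* was 0.25 without *Gp130* ecKO 1.

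On this scale 3 of the 40 genes were lower without overlap, as were 0.193% of all tested genes, a share kept small by the lower reference. The 3 genes were *Pgf*, with a difference of −1.54, *Aplnr*, with −0.53, and *Sox18*, with −0.39. Without control 1 these differences were −0.94, −0.47 and −0.25, and for *Sox18* control 3, at 0.53, was barely above *Gp130* ecKO 1, at 0.52. For *Aplnr* the values were 2.31, 2.06 and 2.18 in the controls and 1.64, 1.85 and 1.46 in *Gp130* ecKO. Of all tested genes 58.8% were higher without overlap on this scale, and the median difference over all tested genes was 1.14. Of the 40, 7 were higher without overlap. The 7 were *Vegfb*, *Vegfc*, *Angpt1*, *Angpt2*, *Sox7*, *Cd34* and *Prox1*, with differences between 0.39 and 1.18. Without control 1 those of *Angpt1* and *Cd34* were 0.46 and 0.24, and without *Gp130* ecKO 1 those of *Vegfb* and *Angpt2* were 0.72 and 0.57. They are genes that were not lower, or less so than the endothelial reference, and against the median of all tested genes none of the 7 was higher without overlap and *Cd34* was lower without overlap (−0.73). *Lyve1* had the largest difference above 0, 1.27, with overlap. These are descriptions of the same uteri, with no test.

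**Figure D4:**
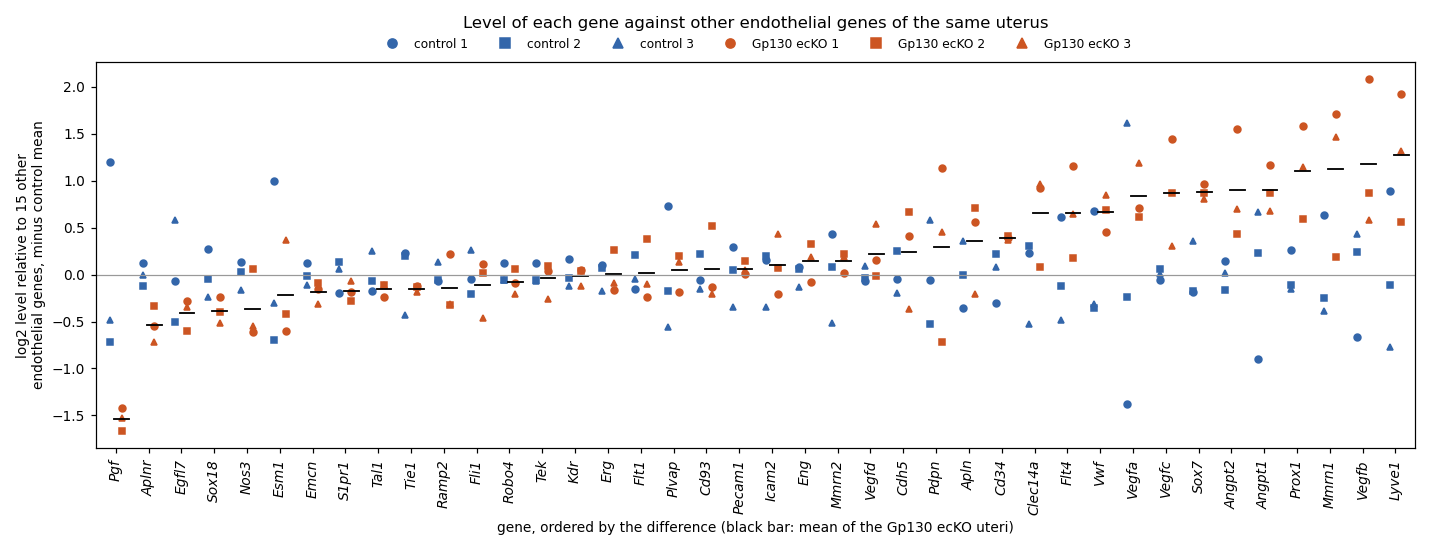
Each point is the log2 level of a gene relative to 15 other endothelial genes of the same uterus, minus its control mean, with genes ordered by the difference between the group means (black bar). Most blood endothelial genes lie near 0, *Pgf* lies lowest at −1.54 (−0.94 without control 1), and *Mmrn1*, *Prox1* and *Vegfb* (1.18, and 0.72 without *Gp130* ecKO 1) lie to the right, with *Lyve1* at 1.27. Over all tested genes the median difference was 1.14.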

How the data were processed

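RNA of 3 control and 3 *Gp130* ecKO uteri was sequenced as strand-specific poly(A) libraries (single reads of 75 bp). The authors trimmed reads with fastp 0.23.2, removed ribosomal RNA, mapped to GRCm39 with STAR 2.7.10a and estimated gene counts with RSEM 1.3.3, versions per the submitters' processing notes. The deposited expected counts are not normalized, and RSEM divides reads shared between genes. The deposited TPM, in which the authors' RSEM run corrects for transcript length and library size, served for levels between genes and for whether the groups overlapped, not for tests. The annotation version and the use of strand in counting are not given in the sources used here.

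Expected counts were rounded and analysed with edgeR 4.0.16 in R 4.3.3 (filterByExpr, TMM, quasi-likelihood F test, Benjamini-Hochberg over 16605 genes). Genes were called at an FDR under 0.05 and more than 2-fold change. Every adjusted p in the text comes from this test unless another is named. Standard errors are the log2 fold change over the square root of F. The quasi-likelihood test was tried on simulated counts, and the other tests and steps were not. Symbols came from GENCODE M39. Relative levels used log2(CPM + 0.5).

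Total expected counts ranged from 13960748 to 25906443 per uterus. The labels give a number per uterus and no more on its source, so p-values measure the spread between these samples. No pair of libraries within a group agreed within counting noise.

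The 40 genes and all gene lists were chosen with earlier results of these data known. Values in every uterus were given for genes with an unadjusted p under 0.05, for those without overlap between the groups, and for *Pecam1*, *Cdh5*, *Kdr*, *Vegfa*, *Prox1* and *Lyve1*, and at most 4 genes past both criteria were named from each other list. *Sox7*, *Flt4*, *Rasgrp3*, *Ccl21a*, *Foxc2*, *Epcam* and *Thbs2* were singled out after their values were seen. Alternatives were DESeq2 1.42.0, other edgeR tests, scalings, filters and thresholds, counts without rounding, a block for the replicate number, and fits that drop 1 uterus. Dropping 1 uterus on the relative scale was added after seeing the data.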

Additional observations from a re-analysis of the deposited data

How the results depend on the processing

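The number of the 40 genes called at an FDR under 0.05 with more than 2-fold change was 0 in the quasi-likelihood test, 14 in edgeR's exact test, 14 in its likelihood ratio test, 17 with DESeq2, and 11 at an FDR under 0.10. Dropping 1 uterus at a time gave 0 to 5, the 5 without control 2. It stayed at 0 with the legacy quasi-likelihood test, other scalings, other filters, unrounded counts and no fold threshold. Over all tested genes the number was 26 in the quasi-likelihood test, 7 in its legacy form, 1252 in the exact test, 1317 in the likelihood ratio test, 1542 with DESeq2, 105 with no filter on low counts, 6 with the replicate block, 855 at an FDR under 0.10, and 1 to 892 when 1 uterus was dropped, the 892 without control 2. The number of the 40 that were lower with an unadjusted p under 0.05 was 26, between 24 and 27 under the other tests, scalings and filters, and 14 to 28 when 1 uterus was dropped. The share of all tested genes lower with such a p was 12.9% in the quasi-likelihood test of all 6 uteri. It was not counted for the alternatives. The deviations of same-numbered uteri from their group means correlated at 0.104, 0.0691 and −0.196, beside −0.311 to 0.22 for uteri with different numbers. Groups of 3 uteri are too small for these values to decide whether the numbers mark a pairing. With the replicate number as a block, 0 of the 40 were called, 20 had an unadjusted p under 0.05, and the log2 fold change of *Lyve1* was 0.042 instead of −0.25. Over the fits that drop 1 uterus, the log2 fold change of *Vegfa* ranged from −0.88 to 0.30, that of *Lyve1* from −0.67 to 0.74 and that of *Prox1* from −0.44 to 0.34. No other of the 29 genes for which the naming rule asks for every uterus changed direction. Of the rest, *Vwf*, *Angpt2*, *Mmrn1* and *Vegfb* changed sign without control 1, *Mmrn1* also without *Gp130* ecKO 2, and *Vegfb* also with upper quartile scaling, with the replicate block and without control 3 or *Gp130* ecKO 1. With the median of all tested genes as the reference, in place of the 15 other endothelial genes, the median difference of the 40 was −1.04 instead of 0.08. The causes of these changes were not tested. Control 3 had the lowest depth, and *Esm1* rested on few counts in most uteri.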
